A study of Vitis vinifera with 11 samples.

Results

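The grapevine (Vitis vinifera) genes described here are those whose transcripts stood higher at each successive inflorescence node in both of 2 picovine lines. They were selected on the inflorescence values themselves: within each line, node 2 had at least 1 RPKM and at least 2 times node 1, and node 3 had at least 5 RPKM and at least 2 times node 2. RPKM is a read count scaled to the length of the gene and to the number of mapped reads. In all, 130 genes met these limits in both lines, 4 of them (SWEET15, CHI4C, GA20ox1 and HT5) were set aside beforehand, and the remaining 126 of 25771 genes (0.489%) are called stepwise genes below. Their course along the inflorescence nodes is therefore a description and carries no test.

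Grapevine shoots form inflorescences and tendrils in the same place, opposite a leaf, from a common kind of primordium. New primordia arise at the shoot apex, so structures at higher node numbers counted from the apex are older. In an inflorescence this ageing takes in branching, the laying down of floral organs, and the growth of those organs, whereas a tendril elongates and becomes able to coil. Picovines are dwarf vines that bear inflorescences where other vines bear tendrils.

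Inflorescences of nodes 1, 2 and 3 came from the picovine lines 06C021V0046 and 06C008V0003, with 1 library per line and node. Tendrils of nodes 1, 2 and 3 were taken from Pinot Meunier L2, the control, a vine of normal stature derived from the inner cell layer of the chimeric cultivar Pinot Meunier; each node gave 1 library. Leaf material was a pool over nodes, sequenced as 1 library for 06C021V0046 and as another for Pinot Meunier L2. All vines grew in the same controlled light and temperature cycle, and the labels give no treatment and no number of plants per library. Organ and genotype changed together between inflorescences and tendrils, so neither can be told apart from the other there. The labels place both leaf pools opposite inflorescences, while the collection text has tendrils on Pinot Meunier L2, so the place of that pool is uncertain.

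Depth ranged from 11.36 to 14.55 M reads (M for mega) in inflorescences and was 9.92, 7.36 and 15.18 M in tendrils of nodes 1, 2 and 3. The leaf pools had 9.20 M (06C021V0046) and 14.99 M (Pinot Meunier L2). The labelled organs were checked against 5 floral organ genes (MADS9, TM6, AP3, AG and MADS2). Their summed level was 1141 to 2055 RPKM in inflorescences, 0.851 to 1.15 RPKM in tendrils and 2.37 to 5.01 RPKM in leaf pools. AP1 and VFUL-L, transcription factor genes active in both tendrils and inflorescences, summed to 150 to 202 RPKM in inflorescences, 188 to 375 RPKM in tendrils, and 5.002 and 1.09 RPKM in leaf pools. The photosynthesis genes PSBP1 and NDHM, taken as leaf markers, did not set leaves apart as a pair: they summed to 108 to 341 RPKM in inflorescences, 186 to 877 RPKM in tendrils, and 373 and 664 RPKM in leaf pools.

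Few of the stepwise genes could be given a name or a role. The RefSeq table of the assembly ASM3070453v1 held 103 of the 126 genes: 97 were protein coding, 5 were pseudogenes and 1 was a long non-coding RNA. Only PMT2, of the family of polyol and monosaccharide transporters, had a symbol, and the other 102 had a locus number alone. The 23 genes outside the table are called by their gene number. All genes named by number below were chosen after their values were seen, except LOC100242587, LOC100242221 and LOC100242385, the 3 highest at node 3.

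As a group, the 126 genes took a larger share of the inflorescence transcript pool at each node. Their share of the summed RPKM of all genes was 0.181%, 0.795% and 2.64% at nodes 1, 2 and 3 of 06C021V0046. In 06C008V0003 it was 0.110%, 0.501% and 1.70%. In tendrils of nodes 1, 2 and 3 the share was 0.189%, 0.123% and 0.367%, and in the leaf pools it was 0.369% (06C021V0046) and 0.282% (Pinot Meunier L2). The inflorescence shares at node 1 thus lay within the range of the tendril and leaf libraries in 06C021V0046 and below it in 06C008V0003, while those at nodes 2 and 3 lay above it in both lines. A few abundant genes carried much of the sum at node 3. The 5 stepwise genes highest in RPKM summed over all 11 libraries made up 46.8% of it in 06C021V0046 and 45.6% in 06C008V0003. These are bulk samples, in which more cells of a type and more RNA per cell cannot be told apart.

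**Figure D1:**
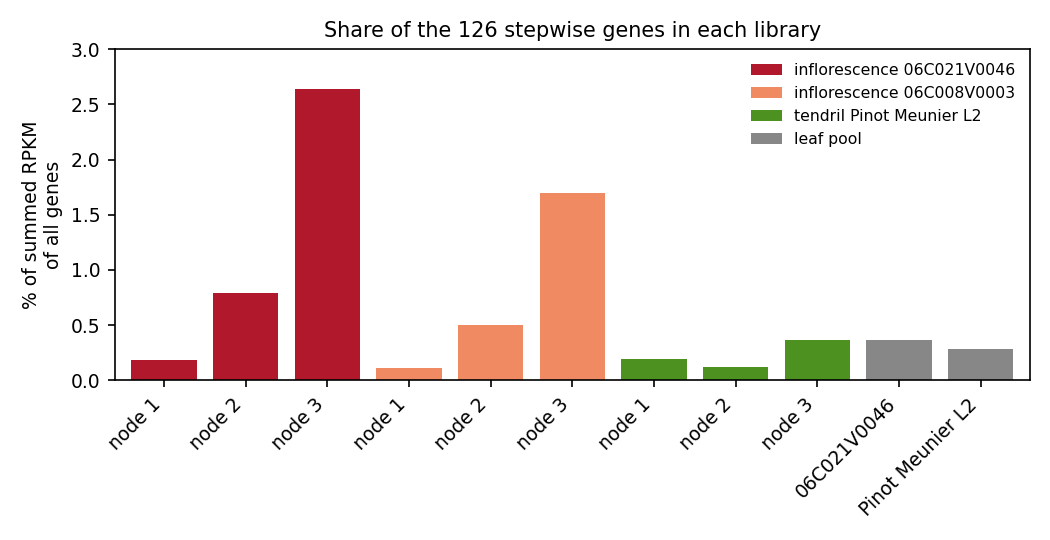
Bars give the summed RPKM of the 126 stepwise genes as a percentage of the summed RPKM of all genes (vertical axis) in each of the 11 libraries (horizontal axis), coloured by organ and line. The inflorescence bars reach 2.64% and 1.70% at node 3, against at most 0.369% in tendril and leaf libraries.

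For the median stepwise gene the level was 1.42, 7.62 and 31.8 RPKM at nodes 1, 2 and 3 of 06C021V0046. The corresponding medians in 06C008V0003 were 0.803, 4.34 and 22.6 RPKM. At node 1, 79 of the 126 genes reached 1 RPKM in 06C021V0046 and 52 did in 06C008V0003. No read was found at node 1 for 2 genes in 06C021V0046 and for 10 genes in 06C008V0003. At node 3 the mean of both lines ran from 5.42 to 2183 RPKM, with a median of 27.4 RPKM, and 32 genes averaged at least 100 RPKM.

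The median steps were close between the lines. From node 1 to node 2 the median ratio was 4.50 in 06C021V0046 and 5.09 in 06C008V0003, and from node 2 to node 3 it was 3.42 and 3.46. Over all genes of at least 1 RPKM, the corresponding medians were 1.07 and 0.995 for the first step and 0.862 and 0.960 for the second. The first step was the larger in both lines for 58 stepwise genes, the second for 28, and for the other 40 the lines differed in which step was larger. Over the whole range from node 1 to node 3 the median ratio was 20.1 in 06C021V0046 and 19.7 in 06C008V0003.

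The limits of the selection ran through a continuum of genes. Just inside them were LOC100265307, with 1.005 RPKM at node 2 of 06C008V0003, and LOC100255300 and gene 100246955, each with a smallest step of 2.03 times. Just outside were LOC100232927, LOC100256514 and gene 100258641, each with a smallest step of 1.98 times. LOC100232927 was abundant, with 453, 965 and 1933 RPKM at nodes 1, 2 and 3 of 06C021V0046 and 264, 607 and 1205 RPKM in 06C008V0003.

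The stepwise genes fell into groups by their levels outside the inflorescences, which the selection did not use. Of the 126 genes, 46 (36.5%) were under 1 RPKM in all 5 tendril and leaf libraries. Among all 12319 genes of at least 5 RPKM at node 3 in both lines, 166 (1.35%) were that low in tendrils and leaves, and 27.7% of those 166 were stepwise genes. A further 14 genes reached 1 RPKM in a leaf pool but in no tendril, 6 reached it in a tendril but in no leaf pool, and 60 did so in both organs. The median ratio of node 3 to node 1 was 52.6 for the 46 genes, 34.3 for the 14, 20.5 for the 6 and 9.20 for the 60.

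**Figure D2:**
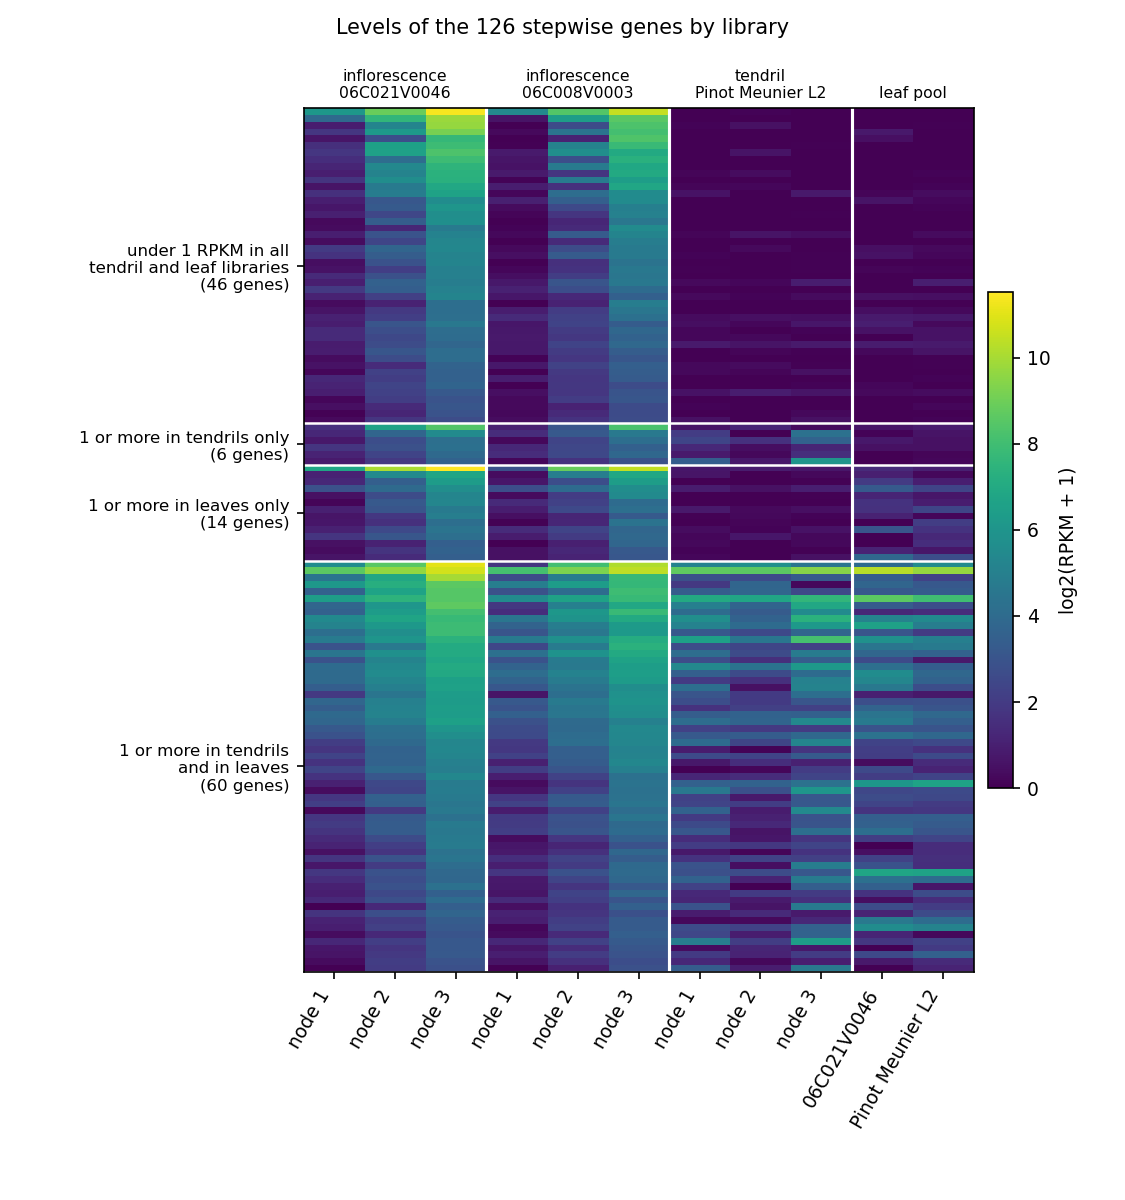
Each row is 1 of the 126 stepwise genes and each column 1 of the 11 libraries, with colour giving log2(RPKM + 1). Rows are grouped by whether a gene reached 1 RPKM in tendrils or leaves and ordered within a group by the mean level at node 3; 46 genes stay dark in all 5 tendril and leaf columns, while 60 are lit in both organs.

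Among the genes nearly silent outside inflorescences, LOC100242221 was the most abundant. It had 67.9, 476 and 2617 RPKM at nodes 1, 2 and 3 of 06C021V0046, and 41.5, 347 and 1442 RPKM in 06C008V0003. A single read was counted for it over all 3 tendril and 2 leaf libraries, in the tendril of node 2. Pooled over libraries, its level at node 3 was 176300 times that in tendrils and leaves (95% counting interval 31640 to 6964000). Counting intervals and floors cover counting error only, since the reads carried no molecular identifiers.

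LOC100242587 was the most abundant of all stepwise genes at node 3. It had 108.9, 1076 and 2956 RPKM in 06C021V0046 and 6.06, 457.5 and 1411 RPKM in 06C008V0003. Tendrils of nodes 1, 2 and 3 had 0.613, 0.826 and 0.601 RPKM, and the leaf pools 1.65 and 1.01 RPKM. Node 3 inflorescences stood 2400 times above tendrils and leaves pooled (1499 to 4121, on 17 reads).

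No read at all was found in tendrils and leaves for 11 stepwise genes. The most abundant was LOC100253145, with 14.3, 193.5 and 900 RPKM at nodes 1, 2 and 3 of 06C021V0046 and 0.547, 84.3 and 381 RPKM in 06C008V0003. Against the floor of 3 reads over the 5 tendril and leaf libraries together, its pooled level at node 3 was at least 4575-fold higher. The same bound was at least 3613-fold for LOC100257722, 1999-fold for LOC100248462, 1757-fold for LOC100242484 and 1562-fold for LOC100262510. For the other 6 genes it ran from 79.6-fold for LOC100242028 to 780.5-fold for LOC100248744.

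The steepest courses belonged to genes almost absent at node 1. LOC100256735 had 0.870, 35.7 and 845 RPKM at nodes 1, 2 and 3 of 06C021V0046, and 0, 5.25 and 316 RPKM in 06C008V0003, so the lines summed gave a ratio of 1334 between node 3 and node 1. LOC100260218 had 0.557, 5.52 and 204 RPKM in 06C021V0046 and 0, 1.15 and 325 RPKM in 06C008V0003, a summed ratio of 950. Its larger ratio was at the second step, whereas LOC100257863 had its larger ratio at the first, with 1.90, 91.5 and 236 RPKM in 06C021V0046 and 0.0629, 34.4 and 225 RPKM in 06C008V0003. All 3 of these genes stayed under 1 RPKM in every tendril and leaf library.

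Some pairs of these genes ran alike. LOC100262880 had 0.977, 34.6 and 165 RPKM in 06C021V0046 and 0.809, 2.47 and 126 RPKM in 06C008V0003. LOC100247510 had 0.533, 24.8 and 121 RPKM in 06C021V0046 and 0.883, 2.06 and 111 RPKM in 06C008V0003. In both, node 2 was high in 06C021V0046 and low in 06C008V0003, and 1 read of either gene was worth the same 0.108 RPKM in the tendril of node 1. Genes 100252522 and 100253814 likewise shared the worth of a read and stood higher at node 3 in 06C008V0003 (46.2 and 28.7 RPKM) than in 06C021V0046 (25.9 and 16.9 RPKM). An equal worth of a read means only an equal gene length. Whether these pairs are near-identical copies was not tested, and how reads shared by copies were assigned is not given in the sources used here.

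Several further genes of the 46 passed 100 RPKM in the oldest inflorescences. LOC100246074 had 2.52, 72.5 and 569 RPKM at nodes 1, 2 and 3 of 06C021V0046 and 0.232, 20.6 and 274 RPKM in 06C008V0003, with reads outside inflorescences in the leaf pool of 06C021V0046 alone (0.735 RPKM, 6 reads). Gene 100252954 had 2.56, 95.5 and 319.5 RPKM in 06C021V0046 and 0.796, 50.8 and 129 RPKM in 06C008V0003, with reads elsewhere in the tendril of node 2 alone (0.525 RPKM). LOC100257722, with no read elsewhere, had 1.80, 16.5 and 239 RPKM in 06C021V0046 and 0.569, 5.73 and 156 RPKM in 06C008V0003. In all 3 genes both node 3 inflorescence libraries lay above all other libraries.

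The 14 genes that reached 1 RPKM in a leaf pool but in no tendril were mostly low in leaves as well, with a median of 1.47 RPKM in the pool of 06C021V0046 and 1.27 RPKM in that of Pinot Meunier L2. LOC100262701 was among the more abundant in inflorescences, with 1.40, 10.3 and 82.1 RPKM at nodes 1, 2 and 3 of 06C021V0046 and 0.646, 5.57 and 84.5 RPKM in 06C008V0003. It had 0, 0 and 0.0620 RPKM in tendrils and 3.07 and 0.942 RPKM in leaf pools, so the leaf level lay within the range of the first 2 inflorescence nodes. LOC100244435 had 6.22, 14.9 and 51.0 RPKM in 06C021V0046 and 5.73, 15.1 and 48.9 RPKM in 06C008V0003, nearly the same in both lines. Its tendrils had 0.851, 0.430 and 0.974 RPKM and its leaf pools 8.49 and 4.23 RPKM.

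The 6 genes that reached 1 RPKM in a tendril but in no leaf pool included LOC100258906, which barely did so. It had 2.11, 98.8 and 337 RPKM at nodes 1, 2 and 3 of 06C021V0046 and 1.05, 7.23 and 299 RPKM in 06C008V0003, against 0.512, 1.265 and 0.279 RPKM in tendrils and 0.552 and 0.847 RPKM in leaf pools. The lines were far apart at node 2 and close at node 3. In contrast, LOC100266230 had 1.24, 4.08 and 14.3 RPKM in 06C021V0046 and 1.75, 4.61 and 13.2 RPKM in 06C008V0003, against 0.754, 0.203 and 1.87 RPKM in tendrils.

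PMT2, the transporter gene, was low at the first node and low outside inflorescences. It had 0.567, 2.68 and 29.2 RPKM at nodes 1, 2 and 3 of 06C021V0046 and 0.385, 1.29 and 8.71 RPKM in 06C008V0003. Tendrils of nodes 1, 2 and 3 had 0.0627, 0.169 and 0.0819 RPKM, and the leaf pools 1.15 RPKM in 06C021V0046 and 0.166 RPKM in Pinot Meunier L2. Node 3 inflorescences stood 66.6 times above tendrils and leaves pooled (45.2 to 103, on 26 reads).

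Among the other 23 sugar and polyol transporter genes with a symbol, SWEET15, a sugar exporter of the plasma membrane, and HT5, a hexose transporter, were set aside from the 126 genes as stated above. The hexose transporters HT9 and HT10 had the same direction at a lower level: HT9 had 0, 0.224 and 4.25 RPKM in 06C021V0046 and 0, 0 and 1.48 RPKM in 06C008V0003. HT6 and SUC27, a sucrose transporter, ran the other way, with HT6 at 66.5, 49.6 and 19.8 RPKM in 06C021V0046 and 44.1, 46.7 and 15.7 RPKM in 06C008V0003. Of the 24 transporter genes, 16 were abundant enough to be tested. None was called on the tendril slope, HT4 and HT5 were called lower in tendrils than in leaves, and SWEET15, HT2, SUC11 and SUC27 were called higher in 06C021V0046 than in 06C008V0003, by the fits given below. Of all tested genes, 9.71% were called lower in tendrils than in leaves and 8.76% higher in 06C021V0046.

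At the other end, gene 100264322 was abundant in every organ. It had 392, 808 and 1703 RPKM in 06C021V0046 and 279, 619 and 1354 RPKM in 06C008V0003. It also had 420.5, 389 and 690 RPKM in tendrils of nodes 1, 2 and 3, and 1243 RPKM (06C021V0046) and 846 RPKM (Pinot Meunier L2) in the leaf pools, all below its node 3 inflorescences. In 17 of the 126 genes a tendril or leaf library lay above both node 3 inflorescences: a tendril did so for 11 genes and a leaf pool for 8.

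The leaf pools differed from each other in genotype, and had 1 library each, so they are given side by side with no test. Of the 74 stepwise genes that reached 1 RPKM in a leaf pool, some were higher in the pool of 06C021V0046 and others in that of Pinot Meunier L2. Gene 100246955 had 94.8 RPKM in 06C021V0046 leaves and 28.2 RPKM in Pinot Meunier L2 leaves, and LOC100250761, the long non-coding RNA, had 47.4 and 13.3 RPKM. LOC100258792 ran the other way, with 68.3 RPKM in 06C021V0046 leaves and 102 RPKM in Pinot Meunier L2 leaves.

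Whether these genes also change along the nodes of a tendril was asked next, in libraries the selection had not used. At least 1 RPKM in a tendril was reached by 66 stepwise genes. Of these, 34 (51.5%) stood at least 2 times higher in the tendril of node 3 than in that of node 1, against 960 (5.27%) of all 18206 genes that reached 1 RPKM in a tendril. The opposite, node 1 at least 2 times node 3, was seen for 1 of the 66 (1.52%) and for 13.7% of all 18206. The median ratio of node 3 to node 1 was 2.02 for the 66 genes and 1.04 for all. The limit of 1 RPKM could be met by the tendril of node 3 alone, which favours a higher node 3. LOC100266230, gene 100245902, LOC100247999, LOC100264284 and gene 100252282 met it so and count among the 34, while LOC100255300 met it at node 1 alone. The 18206 genes passed the same limit but were not matched for level.

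The path between these nodes was not stepwise. The tendril of node 2 was the lowest and that of node 3 the highest for 46 of the 66 genes (69.7%), against 32.5% of all 18206 genes. The median ratio of node 2 to node 1 was 0.498 for the 66 stepwise genes and 1.00 for all genes. The level was higher at both tendril steps for 6 of the 66 genes, and lower at both steps for 1 gene. Of the 6, only gene 100252282 was higher by at least 2 times at both steps, on 0, 1 and 45 reads at nodes 1, 2 and 3. Of the 46 genes with the dip, 29 had a node 3 level at least 2 times that of node 1, and 31 had a node 1 level at least 2 times that of node 2.

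**Figure D3:**
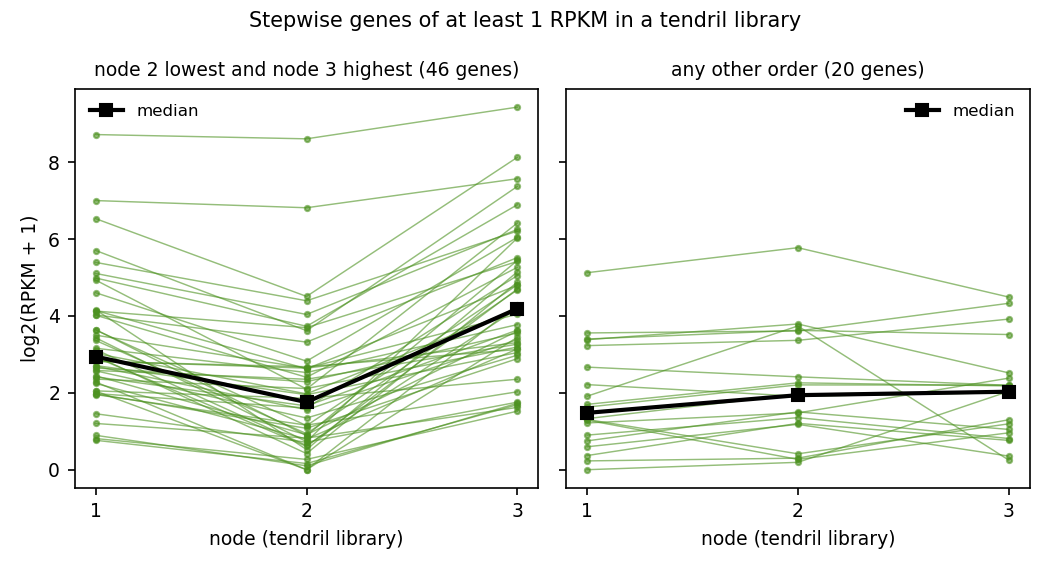
Each thin line joins log2(RPKM + 1) of 1 stepwise gene across the single tendril libraries of nodes 1, 2 and 3 (horizontal axis), for the 66 genes of at least 1 RPKM in a tendril, with the median of each panel in black. In the left panel 46 genes dip at node 2 and are highest at node 3, and the right panel holds the other 20.

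LOC100262819 shows the pattern at high levels, with 91.5, 21.8 and 279 RPKM in tendrils of nodes 1, 2 and 3. In inflorescences it had 26.5, 63.9 and 168 RPKM in 06C021V0046 and 26.4, 54.2 and 142 RPKM in 06C008V0003, so the tendril of node 3 lay above every inflorescence library. Gene 100258613 had 51.1, 11.3 and 165 RPKM in tendrils, against 216 and 127 RPKM in node 3 inflorescences of 06C021V0046 and 06C008V0003.

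A few genes were far more abundant in the tendril of node 3 than in any inflorescence. LOC100242479 had 9.78, 0.660 and 64.3 RPKM in tendrils of nodes 1, 2 and 3, against 11.5 and 6.35 RPKM in node 3 inflorescences of 06C021V0046 and 06C008V0003. Gene 100253871 had 29.5, 3.28 and 84.5 RPKM in tendrils, against 8.17 and 8.54 RPKM in those inflorescences. LOC100264136 went the other way in tendrils, with 2.76, 12.4 and 0.190 RPKM, while its node 3 inflorescences had 397 and 205 RPKM.

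No stepwise gene was called on the linear tendril slope by limma, a linear model with moderated variances fitted to log2(RPKM + 1) over 19761 genes, at a Benjamini-Hochberg adjusted p under 0.05. The slope rests on tendril values, and its error on the spread of all 11 libraries. The share called was 0% of all tested genes in either direction. An unadjusted p under 0.05 was reached by 3 stepwise genes and by 971 genes in all, and the lowest adjusted p of a stepwise gene was 0.971. The smallest unadjusted p belonged to gene 100252307, with 2.95, 2.05 and 32.2 RPKM in tendrils of nodes 1, 2 and 3, a slope of 1.54 ± 0.46 log2 units per node (SE). A straight line leaves a dip at node 2 in its residual, and each tendril node had 1 library. Without the tendril of node 1, the fitted slope became node 3 minus node 2, from 1 library each. Its median was 0.24 log2 units for the stepwise genes and -3.9e-17 for all genes. Without the tendril of node 3, the slope became node 2 minus node 1, with medians of -0.114 and 1.5e-16. Neither is the slope over nodes 1 to 3.

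Other features of the libraries moved along the same tendril nodes. The tendril of node 2 was the shallowest library and that of node 3 the deepest. PSBP1, a photosystem II gene, had 752, 868 and 175 RPKM in tendrils of nodes 1, 2 and 3, whereas NDHM had 10.03, 9.10 and 10.8 RPKM. AP1 had 162, 119.5 and 298 RPKM and VFUL-L 69.3, 68.5 and 77.0 RPKM. The summed floral organ genes stayed at 0.927, 1.15 and 0.851 RPKM, with MADS9 at 0 in the tendril of node 2 and AP3 at 0 in those of nodes 1 and 3. The part of depth, photosynthesis genes or AP1 in the levels of the stepwise genes was not tested.

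Tendrils were then compared with leaves in the same model. The difference itself rests on tendril and leaf values, which the selection did not use, but its error draws on the spread of all 11 libraries, inflorescences included. In tendrils 3 stepwise genes (2.38%) were called higher than in leaf pools and 13 (10.3%) lower, against 2.89% higher and 9.71% lower among all 19761 tested genes. The 46 stepwise genes under 1 RPKM in every tendril and leaf library held none of these calls. Among tested genes of at least 1 RPKM in a tendril or leaf library, the calls were 3 higher (3.75%) and 13 lower (16.2%) of 80 stepwise genes, and 2.99% higher and 10% lower of all 19140 genes. Under median-ratio scaling the calls over all genes shifted to 919 higher and 1535 lower from 572 and 1918, as the median of all genes moved to 0.0339 from -0.143 (log2), while the stepwise genes gave 3 higher and 9 lower.

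The genes called lower in tendrils included some that were more abundant in leaves than in any inflorescence. LOC100266698 had 6.04, 5.41 and 7.75 RPKM in tendrils of nodes 1, 2 and 3, against 108.5 RPKM (06C021V0046) and 102.5 RPKM (Pinot Meunier L2) in the leaf pools, a difference of -3.86 ± 0.24 log2 units (SE, limma adjusted p = 1.73e-05). Its inflorescences ranged from 2.53 RPKM at node 1 to 15.0 RPKM at node 3 of 06C008V0003. LOC100247999 had 0.172, 0.232 and 1.46 RPKM in tendrils, against 24.7 and 15.7 RPKM in leaf pools (-3.76 ± 0.30, limma adjusted p = 5.09e-05). LOC100258792 had 10.8, 11.2 and 19.1 RPKM in tendrils, against 68.3 and 102 RPKM in leaf pools. For the genes called lower, the difference ran from -1.32 (LOC100248136) to -3.86 log2 units.

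The 3 genes called higher in tendrils were LOC100255553, LOC100245247 and LOC100267551. LOC100255553 had 15.3, 8.99 and 44.8 RPKM in tendrils of nodes 1, 2 and 3, against 1.41 and 1.73 RPKM in leaf pools (2.93 ± 0.66 log2 units, SE, limma adjusted p = 0.0158). Its inflorescences had 10.9, 82.7 and 271 RPKM in 06C021V0046 and 1.83, 68.1 and 223 RPKM in 06C008V0003. LOC100245247, a pseudogene in RefSeq, had 7.14, 2.93 and 17.2 RPKM in tendrils and 1.05 and 0.680 RPKM in leaf pools.

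Most of these calls were lost when the inflorescence libraries were left out of the error. With tendril and leaf libraries alone, 2 stepwise genes (LOC100266698 and LOC100247999) were called lower and 0 higher, against 239 and 19 of all genes, and these 2 were the only ones of the 16 called in every setting run. With genotype as a replicate block, 0 were called higher and 10 lower, against 216 and 1126 of all genes. Without the tendril of node 2, 18 stepwise genes were called higher, against 1153 of all genes. Without the tendril of node 1 or that of node 3, the fitted tendril level was that of the node 2 library alone. Both omissions therefore gave the same difference, with a median of -0.247 log2 units for the stepwise genes and -0.136 for all genes. With 1 leaf pool left out, 0 were called higher, against 174 of all genes without that of 06C021V0046 and 845 without that of Pinot Meunier L2.

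The picovine lines were compared last. The selection treats both lines alike and so does not set the sign of a difference between them, although its minimum levels limit how far a gene can differ. The same 6 libraries chose the genes, so what follows is a description of them and no independent test. The error of the fit below is how far the line difference varied between nodes. The selection bears on that error too, since both lines had to rise at both steps. The shares called among stepwise genes and among all genes are therefore not like for like. Of the 126 genes, 45 (35.7%) were called higher in 06C021V0046 than in 06C008V0003 by limma on the 6 inflorescence libraries with node as a factor, and 0 were called lower. Over all 19761 tested genes, 8.76% were called higher and 10.9% lower. The median difference was 0.421 log2 units for the stepwise genes and -0.113 for all genes, and it was positive for 108 of the 126. Under median-ratio scaling the median over all genes was -0.000336 and over stepwise genes 0.538, with 46 stepwise genes called higher and 0 lower, while the calls over all genes moved to 2323 higher and 1183 lower from 1731 and 2161.

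**Figure D4:**
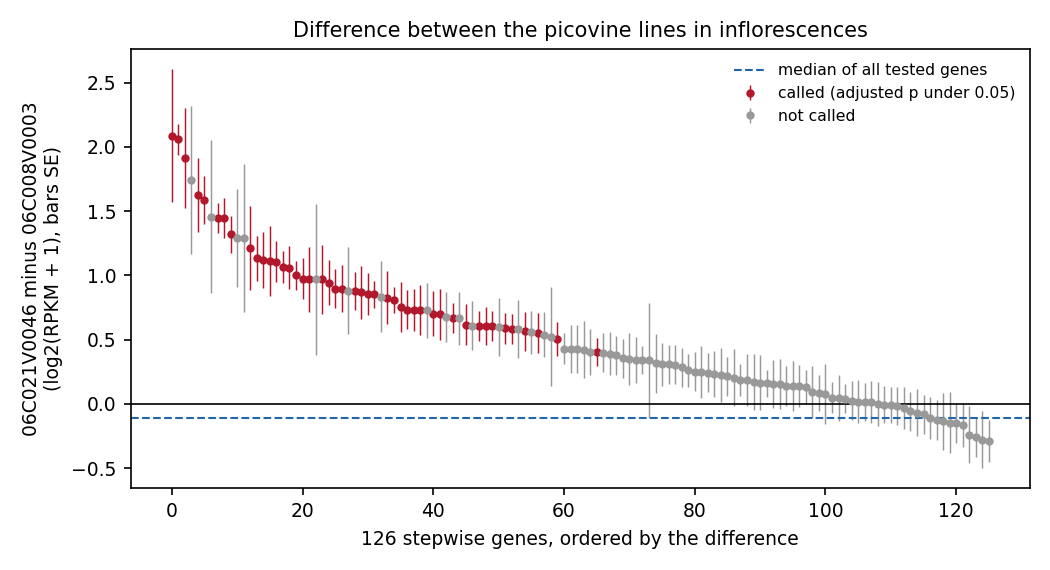
Points give the difference between 06C021V0046 and 06C008V0003 in log2(RPKM + 1), with SE as bars, for the 126 stepwise genes in order of size (horizontal axis). The 45 genes called at an adjusted p under 0.05 are red and all lie above 0, and the dashed line marks the median of all tested genes at -0.113.

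The direction was shared by most stepwise genes at every node. Higher levels in 06C021V0046 were seen for 97 stepwise genes at node 1, 105 at node 2 and 102 at node 3. Of all genes with at least 1 RPKM in both lines, 40.0%, 44.4% and 36.9% were higher in 06C021V0046 at nodes 1, 2 and 3. All 126 stepwise genes met that limit at nodes 2 and 3. At node 1 only 50 did, and 38 of these were higher in 06C021V0046. At all 3 nodes, 75 stepwise genes were higher in 06C021V0046, while 3 (LOC100261307, LOC100255102 and gene 100241748) were higher in 06C008V0003. The share of all genes higher in 1 line at all 3 nodes was not worked out. Over the 50 stepwise genes of at least 1 RPKM in both lines at node 1, the median ratio of 06C021V0046 to 06C008V0003 was 1.31, 1.39 and 1.503 at nodes 1, 2 and 3. The highest ratio in these 50 was 19.7 at node 1, 13.7 at node 2 and 4.82 at node 3.

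LOC100242587 and LOC100241853 differed most, and in different ways. LOC100242587, whose values stand above, was 18.0 times higher in 06C021V0046 at node 1, 2.35 times at node 2 and 2.09 times at node 3 (2.09 ± 0.52 log2 units over nodes, SE). Without either library of node 1 its difference was 1.15. LOC100241853 kept a like difference at all nodes, with 21.3, 118 and 1015 RPKM in 06C021V0046 and 5.22, 27.5 and 210 RPKM in 06C008V0003 (2.06 ± 0.12). Tendrils had 6.08, 5.25 and 8.90 RPKM of it, and the leaf pools 9.17 RPKM in 06C021V0046 and 3.78 RPKM in Pinot Meunier L2.

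LOC100242385 had an early gap like that of LOC100242587 but was not called. It had 47.0, 380 and 2123 RPKM at nodes 1, 2 and 3 of 06C021V0046 and 2.39, 264 and 1151 RPKM in 06C008V0003 (1.74 ± 0.57). Tendrils of nodes 1, 2 and 3 had 33.9, 53.8 and 21.5 RPKM and the leaf pools 15.5 and 46.5 RPKM, so at node 1 inflorescences of 06C008V0003 lay below all of them. Further genes called higher in 06C021V0046 by more than 1 log2 unit included LOC100253145 (1.91 ± 0.39), LOC100256735 (1.63 ± 0.29), LOC100243780 (1.58 ± 0.19) and LOC100246074 (1.44 ± 0.16).

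The genes called between lines came from the groups set apart by their levels outside inflorescences in unequal numbers. They were 21 of the 46 genes under 1 RPKM in all tendril and leaf libraries, 21 of the 60 found in both organs, 2 of the 14 found in a leaf pool but no tendril, and 1 of the 6 found in a tendril but no leaf pool. Over all 19761 tested genes 8.76% were called higher, and the share of all genes called in each such group was not worked out. Differences between these groups were not tested.

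Of the 5 floral organ genes, AP3 was called lower in 06C021V0046 than in 06C008V0003 (-0.52 ± 0.13 log2 units, SE, limma adjusted p = 0.0366). The other 4 were not called and had differences from -0.14 (MADS2) to -0.33 (TM6), beside the median of all genes of -0.113. Their summed level at nodes 1, 2 and 3 was 1143, 1292 and 1472 RPKM in 06C021V0046 and 1141, 1507 and 2055 RPKM in 06C008V0003, with none at 0. The part of floral organ content in the line difference was not tested. Each line had 1 library per node, so differences between plants of a line and between lines cannot be told apart. Without a library of node 2, which takes that node out of the comparison, 6 or 7 stepwise genes were called higher, against 211 or 235 of all genes. Without a library of node 3, 13 were, against 681 or 659 of all genes. With no filter on low values, 24365 genes entered the test and 0 stepwise genes were called, with 11 called among all genes.

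Some stepwise genes lay side by side in the genome. In the gene order of ASM3070453v1, which held 97 of them among 25187 protein-coding genes, 3 pairs were direct neighbours. How many pairs a like number of other genes would give was not worked out. LOC100241853 and LOC100264136 were such a pair: both were higher in 06C021V0046 (2.06 ± 0.12 and 1.00 ± 0.11 log2 units), but in tendrils LOC100264136 varied between 0.190 and 12.4 RPKM while LOC100241853 varied between 5.25 and 8.90 RPKM. LOC100266801 and LOC100256510 had 23.3 and 21.6 RPKM at node 3 of 06C021V0046 and 9.26 and 9.63 RPKM in 06C008V0003. LOC100242142 and LOC100264284 both had their lowest tendril level at node 2 (0 and 0.118 RPKM) and their highest at node 3 (18.6 and 2.23 RPKM).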

How the data were processed

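The authors deposited 1 RPKM value per gene and library from single-end Illumina mRNA libraries. Bowtie 0.12.7 and TopHat 1.2.0 are named in the submitters' processing notes, while the genome build, the annotation and the counting step are not given in the sources used here. Values of all 24365 genes above 0 could be written as whole reads (100%, tolerance 0.01 read), and the depths were summed from these. The smallest whole numbers were taken, so a gene with reads in 1 library passed by default. Read counts and depths can therefore be too low. Names came from the RefSeq table of ASM3070453v1, which held 18647 of the gene numbers (72.4%). The line written here as 06C021V0046, after the sample labels, has another prefix in the growth text.

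The stepwise genes and the gene lists were chosen with earlier results of these data known, and support nothing by themselves. Tests used limma 3.58.1 in R 4.3.3, tested on simulated data, on log2(RPKM + 1) over 19761 genes of at least 1 RPKM in at least 2 libraries, two-sided, with Benjamini-Hochberg adjustment at 0.05. Fold changes on this scale understate those of low genes. One fit over 11 libraries held organ means and a slope on node in inflorescences and in tendrils (6 residual, 4.54 prior degrees of freedom). The lines were compared in 6 libraries with node as a factor (2 residual, 4.8 prior). Replicate numbers stand for the picovine line in inflorescences, though not across organs. Across genes, line differences correlated at 0.629, 0.546 and 0.689 between nodes 1 and 2, 1 and 3, and 2 and 3. Genotype, not the number, therefore served as the block, in the setting with a replicate block alone. The main fit over 11 libraries had no term for genotype, so line differences stayed in its error. Replicates of an inflorescence node were different genotypes, and the error of the fit over 11 libraries includes that spread. It also includes departures from a straight course along nodes and the difference between the leaf pools. In the comparison of lines, the error is how far the line difference varied between nodes. Those p-values do not measure the spread between plants of a line.

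The naming rule covered genes with a symbol or product name, those called, those nearest the limits and the 3 highest at node 3. Since the table gave product names for no gene, other genes are named by number outside it. No sequences were used here.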

Additional observations from a re-analysis of the deposited data

Results flagged for a closer look

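Gene 100258942 had successively lower values along the tendril nodes and higher ones along the inflorescence nodes. Its tendrils of nodes 1, 2 and 3 had 5.36, 4.34 and 3.58 RPKM, a ratio of node 3 to node 1 of 0.668, on 45, 27 and 46 reads. Its tendril slope was -0.24 ± 0.20 log2 units per node (SE) and did not pass the test (limma adjusted p = 1). Its inflorescences of nodes 1, 2 and 3 had 6.66, 24.2 and 133 RPKM in 06C021V0046 and 4.55, 26.5 and 163.5 RPKM in 06C008V0003, an increase by selection. Leaf pools had 21.6 and 25.6 RPKM. The difference in course between the organs was not tested, and each tendril node had 1 library.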

How the results depend on the processing

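Steps of at least 1.5 times gave 308 stepwise genes, steps of at least 3 times 50, and the limits applied in 06C021V0046 alone 306; the other 5 settings of the selection gave 98 to 181. On the tendril slope, leaving out 1 library gave 0 to 21 genes called higher and 0 to 1 lower, and all other settings gave 0. In the comparison of tendrils with leaves, genes called higher numbered 5 with a pseudocount of 0.1, 6 under quantile normalization, 0 with the replicate block of genotype, 0 with tendril and leaf libraries alone, and 0 to 18 with 1 library left out. Genes called lower numbered 10 with the replicate block, 2 with tendril and leaf libraries alone, and 9 to 20 with 1 library left out. Between the lines, genes called higher in 06C021V0046 numbered 0 with no filter on low values and 6 to 42 with 1 library left out, and 34 to 46 under other pseudocounts and scalings; none was called lower in any setting. The replicate block moved no count on the tendril slope. No call changed sign. Of all genes, 546 were called higher in tendrils than in leaves with a pseudocount of 0.1 and 982 under quantile normalization. Between the lines, 1604 to 2323 of all genes were called higher in 06C021V0046 under other pseudocounts and scalings, and 9 with no filter on low values. Chosen after seeing the data, a limit of 3 times in place of 2 gave 13 stepwise genes higher in the tendril of node 3 than of node 1. Limits of 0.5 and 2 RPKM gave 35 and 58 stepwise genes low in tendrils and leaves. The shares of all genes at these other limits were not worked out. The cause of these shifts was not tested. Depth limits the low values: in the tendril of node 2, the shallowest library, 3 reads were worth 0.413 RPKM for the median stepwise gene and more than 1 RPKM for 9 of the 126, and in the tendril of node 3 they were worth 0.200 RPKM and more than 1 RPKM for 0.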
